A study of Mus musculus with 140 samples.

Results

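The genes described here are 35 genes of the endoplasmic reticulum (ER), the compartment in which secreted and membrane proteins are folded, followed over 2 days in mouse liver. They were picked by gene symbol as the chaperones, folding enzymes, degradation factors, translocation channel subunits and stress sensors of the unfolded protein response, out of 13236 genes listed in any of the 3 count tables and 10489 listed in all of them. Of the members, 34 had a row in the wild-type table and 35 in each knockout table. Livers came from 3-month-old male mice that were wild type, Per1,2-/- or Bmal1-/-, all with free access to food. The paper names C57BL/6 for the wild-type mice and cites the knockout lines separately. The part of strain background in the results was not tested. Per1,2-/- mice lack Per1 and Per2, which encode repressors of the circadian clock. Bmal1-/- mice, the Jackson Laboratory Arntl tm1Bra line, lack an activator of the clock. The mice had spent 2 weeks in a light-dark cycle and were then kept in constant darkness, although the label text of the Bmal1-/- samples gives light-dark housing for the experiment as well as constant darkness. Both knockouts are whole-body, so the liver and every other tissue lacked the genes. Livers were collected every 4 hours from circadian time (CT) 0 to CT44, and 3′ end RNA sequencing was done on 48 wild-type, 46 Per1,2-/- and 46 Bmal1-/- libraries, 4 for each time point and genotype apart from 3 in Per1,2-/- at CT8 and CT20 and 3 in Bmal1-/- at CT16 and CT20.

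The unfolded protein response adjusts the folding capacity of the ER to its load. When unfolded proteins accumulate, the chaperone BiP, encoded by Hspa5, leaves the lumenal domains of the sensors IRE1 (Ern1), PERK and ATF6. IRE1 then splices the Xbp1 transcript into the form that encodes an active transcription factor, and ATF6 travels to the Golgi, where the site-1 protease (Mbtps1) releases its transcription factor domain. Both factors bind ER stress elements in the promoters of chaperone, disulfide isomerase and degradation genes. The hepatocyte secretes most of the proteins of the plasma and carries a dense rough ER.

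The ER stress element is shown here because it is the sequence by which many of these genes are known to be induced. It was searched on both strands as CCAAT, any 9 bases, then CCACG, in RefSeq promoters (build GRCm38.p6) that run from 250 bases before to 50 bases after the annotated start. A promoter row existed for 28 of the members and for none of Atf6, Hyou1, Sil1, Manf, Derl1, Sec61a1 and Ssr2. The element was found in 39 of 32851 promoters of this length (0.119%) and in 9 of the 28 member promoters (32.1%), those of Hspa5, Hsp90b1, Dnajc3, Creld2, Pdia6, Calr, Canx, Syvn1 and Derl3. A second form, ERSE-II (ATTGG, any base, CCACG), was found in 0.0365% of promoters and in those of Dnajb11 and Herpud1. The 250 bases before the start are printed for 5 genes that the results return to, with the element in capitals and all other bases in lower case. Hspa5 lies at chr2:34771840-34772089 (plus strand), Creld2 at chr15:88819396-88819645 (plus strand), Derl3 at chr10:75893148-75893397 (plus strand), Hsp90b1 at chr10:86705445-86705694 (minus strand) and Herpud1 at chr8:94386179-94386428 (plus strand).
Hspa5: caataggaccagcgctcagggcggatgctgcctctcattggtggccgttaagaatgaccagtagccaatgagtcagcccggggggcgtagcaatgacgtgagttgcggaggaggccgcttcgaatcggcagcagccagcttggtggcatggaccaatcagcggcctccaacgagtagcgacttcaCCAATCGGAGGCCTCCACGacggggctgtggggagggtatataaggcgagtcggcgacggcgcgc
Creld2: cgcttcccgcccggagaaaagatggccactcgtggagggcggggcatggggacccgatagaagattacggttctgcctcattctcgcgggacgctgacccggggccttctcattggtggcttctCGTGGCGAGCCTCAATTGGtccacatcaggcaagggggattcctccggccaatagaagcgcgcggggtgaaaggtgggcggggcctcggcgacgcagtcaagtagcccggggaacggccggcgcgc
Derl3: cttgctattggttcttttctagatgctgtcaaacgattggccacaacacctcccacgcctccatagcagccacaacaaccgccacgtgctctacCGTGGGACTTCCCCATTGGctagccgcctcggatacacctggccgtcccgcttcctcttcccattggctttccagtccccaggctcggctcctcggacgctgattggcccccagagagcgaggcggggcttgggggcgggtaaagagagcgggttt
Hsp90b1: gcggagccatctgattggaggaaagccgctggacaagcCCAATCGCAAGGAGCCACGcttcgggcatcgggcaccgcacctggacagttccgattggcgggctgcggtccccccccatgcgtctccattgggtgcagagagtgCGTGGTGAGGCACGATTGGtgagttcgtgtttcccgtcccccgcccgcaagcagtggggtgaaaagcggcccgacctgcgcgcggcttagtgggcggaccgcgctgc
Herpud1: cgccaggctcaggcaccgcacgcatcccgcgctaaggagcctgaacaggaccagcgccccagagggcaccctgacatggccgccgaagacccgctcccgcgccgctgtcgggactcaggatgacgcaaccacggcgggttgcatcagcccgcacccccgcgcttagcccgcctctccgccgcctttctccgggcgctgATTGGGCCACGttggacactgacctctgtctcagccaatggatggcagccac

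In the Hspa5 promoter the element lay 65 to 47 bases before the start, on the strand of the gene. The Hsp90b1 promoter held a pair of elements, one 212 to 194 bases before the start and one on the opposite strand 107 to 89 bases before it. In Creld2 it lay 126 to 108 bases and in Derl3 156 to 138 bases before the start, both on the opposite strand, and the ERSE-II of Herpud1 lay 52 to 42 bases before the start. The elements of the other members are given with 20 bases on either side, so that the invariant ends and the varied spacer can be compared. These stretches are Calr at chr8:84847055-84847113 (minus strand), Canx at chr11:50325780-50325838 (minus strand), Pdia6 at chr12:17266471-17266529 (plus strand), Dnajc3 at chr14:118937807-118937865 (plus strand) and Syvn1 at chr19:6046512-6046570 (plus strand). The ERSE-II of Dnajb11, at chr16:22857843-22857871 (plus strand), is given with 9 bases on either side because it begins just after the annotated start.
Calr: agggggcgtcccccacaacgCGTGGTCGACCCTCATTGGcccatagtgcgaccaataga
Canx: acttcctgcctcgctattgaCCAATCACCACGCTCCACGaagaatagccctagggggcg
Pdia6: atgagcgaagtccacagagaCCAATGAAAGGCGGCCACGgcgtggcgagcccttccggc
Dnajc3: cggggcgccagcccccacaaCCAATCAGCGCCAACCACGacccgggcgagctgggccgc
Syvn1: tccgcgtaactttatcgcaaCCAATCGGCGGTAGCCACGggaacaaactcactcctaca
Dnajb11: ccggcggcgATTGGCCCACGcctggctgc

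The shorter site CCACG alone was common, in 32.8% of all promoters and in 24 of the 28 member promoters (85.7%). The longer XBP1 and ATF6 element TGACGTGG, found in 0.676% of promoters, was present only in that of Txndc5 among the members. The E-box CACGTG, to which the clock's own activator binds, was found in 7.15% of promoters and in those of Dnajb9, Txndc5, Calr, Derl3 and Ssr1. A match shows that these letters are in the window, not that a factor binds there.

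Totals ranged from 1678097 to 4364594 counts in wild-type, 1442278 to 5643470 in Per1,2-/- and 1924755 to 5325256 in Bmal1-/- libraries. The hepatocyte markers were all present (6 of 6 in each genotype), with summed levels of 73774 to 104196, 71196 to 112764 and 52643 to 76156 CPM (counts scaled to a fixed library total). Among markers of other cells, the 6 Kupffer cell and macrophage genes found summed to 186 to 776 CPM in wild type, 208 to 1092 in Per1,2-/- and 54.8 to 182 in Bmal1-/-. Of 6 B and plasma cell markers, which would come with secretory cells rich in these same chaperones, Mzb1 was the one found, at no more than 3.17 CPM. Of 9 pancreatic acinar markers, 1 was found in wild type and Per1,2-/- (at most 4.13 and 6.38 CPM) and 8 in Bmal1-/-, where the sum reached 179 CPM in library D at CT4 and 7.45 CPM or less in every other library. The medians of the summed cholangiocyte markers (4 of 4 found) were 56.3, 113 and 113 CPM in wild type, Per1,2-/- and Bmal1-/-, and those of the stellate cell and fibroblast markers 73.3, 138 and 78.7 CPM. Endothelial markers (5 of 5) had medians of 131, 124 and 112 CPM, the Kupffer cell markers 294, 340 and 106 CPM, and the erythroid marker Alas2 233, 119 and 114 CPM. The part of these other cells in the results, the level differences between genotypes included, was not tested. Transcripts of the deleted genes were still counted. Per1 ran from 4.26 to 28.1 CPM (median 9.58) in Per1,2-/- against 1.44 to 66.3 (median 17.2) in wild type. Per2 ran from 10.7 to 40.3 CPM (median 19.4) against 0.625 to 41.0 (median 12.4), and Arntl, the gene for BMAL1, from 4.69 to 15.4 CPM (median 8.47) in Bmal1-/- against 0.664 to 33.6 (median 11.3). Whether the sequenced 3′ ends lie in the deleted parts was not tested, so these counts do not check the labels.

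Each library was measured by the mean log2 deviation of the 33 tested members from the other libraries of its time point. The highest libraries, 1 in each genotype, were picked from this measure. They were wild-type library D at CT44 (0.59, with 30 of the members above the others), Per1,2-/- library D at CT16 (0.66, 29 members) and Bmal1-/- library B at CT0 (0.85, 32 members). Their totals, 3795323, 5209561 and 3855960 counts, lay within the range of their tables, and their acinar marker sums were 0.263, 2.69 and 7.26 CPM. The lowest deviations were -0.52 (wild-type library A at CT44), -0.62 (Per1,2-/- library C at CT8) and -0.51 (Bmal1-/- library B at CT28). Per1,2-/- library C at CT28 was at -0.60. No check left out the lowest libraries alone. Counts of members that change without the 3 highest libraries are given with and without them. The plot of deviations by library shows that the 3 lie above the rest of their genotype.

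**Figure D1:**
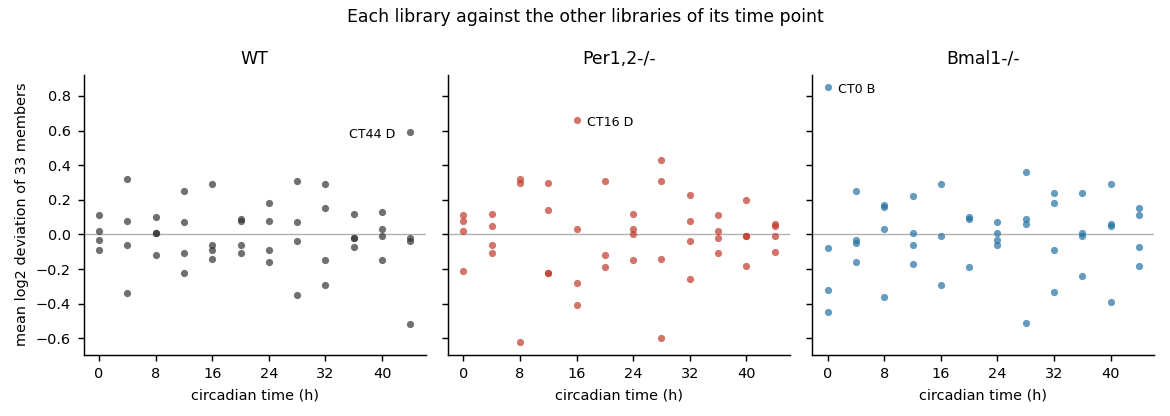
Mean log2 deviation of the 33 tested members in each library from the other libraries of the same time point (y axis) against circadian time in hours (x axis), by genotype. The labelled points are the highest library of each genotype, at 0.59 in WT, 0.66 in Per1,2-/- and 0.85 in Bmal1-/-.

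A rhythm was called where the exact JTK_CYCLE test, a rank test against waves of one period, gave a Benjamini-Hochberg adjusted p under 0.2 over all tested genes, those with no library at 0. This filter left 33 members. Ern1, the IRE1 gene, was too low, with normalized counts of 0 to 11 (median 3.22) in wild type, 0 to 12.6 (median 5.31) in Per1,2-/- and 0 to 10.9 (median 5.88) in Bmal1-/-, and 3, 1 and 1 libraries at 0. Manf, which encodes a secreted cofactor of BiP, was the member with no row in the wild-type table, so it was not tested. It ran from 0 to 6.26 normalized counts (median 1.95, 9 libraries at 0) in Per1,2-/- and from 458 to 1657 (median 983) in Bmal1-/-. Its levels were not compared between these separately built tables. Whether the tables differ in how this gene was annotated or counted was not tested. The level comparisons below also set separately built tables side by side. The labels do not say which libraries came from separate mice, so p-values measure the spread between libraries, part of which may be technical.

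In wild-type liver 27 of the 33 members cycled with a period of about 24 hours (81.8%), against 48.6% of all 9258 genes tested. The median peak-to-trough fold was 1.36 over the tested members and 1.25 over all genes, and among called genes the median relative amplitude (the height of the fitted 24-hour wave over its mean) was 0.229 for members and 0.165 for all. Of the 27, 19 peaked between 18 and 24 hours (70.4%), the later part of the subjective night, where 26.8% of all cycling genes peaked. In the narrower window from 20 to 24 hours the shares were 66.7% and 18.9%. No member peaked between 8 and 12 hours, where 20.3% of all cycling genes did. The count of 27 did not change without the highest libraries, and leaving out the libraries of one letter (A to D) at a time gave 22 to 28.

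**Figure D2:**
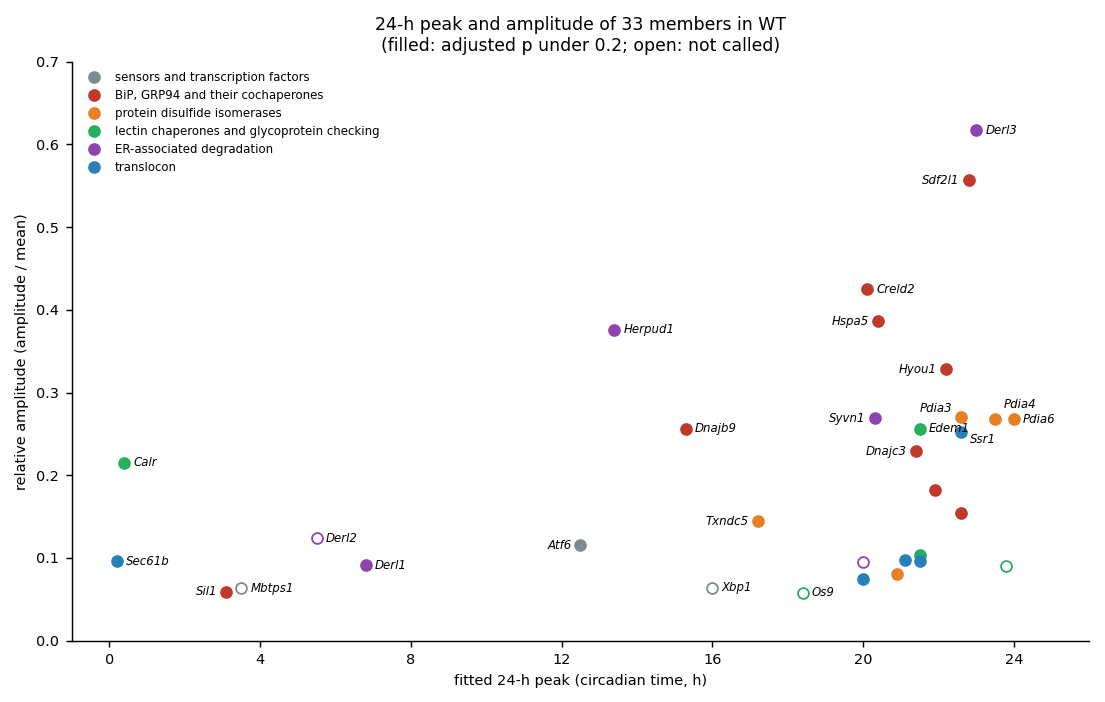
Fitted 24-hour peak in hours of circadian time (x axis) and relative amplitude (y axis) of the 33 tested members in wild-type liver, with filled points for members called at 24 hours. Most filled points lie between 18 and 24 hours, with Herpud1 at 13.4 hours and Dnajb9 at 15.3 hours apart from them.

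Averaged over libraries, the members moved together through the day. At CT20, 28 of the 33 stood above their own mean, with a median of 0.19 on the log2 scale, and at CT36 only 1 did, with a median of -0.33. The trough repeated, at CT12 on the first day (median -0.14) and at CT36 on the second, with 14 and 19 members at their lowest of that day. The peak was spread over neighbouring times, with 14 members highest at CT20 on the first day, and 11 at CT24 and 13 at CT44 on the second. For each gene below, the time points were picked for high and low means, so that a gap between them is a description and the rhythm test is the comparison. All values are DESeq2-normalized counts of libraries A, B, C and D in that order, and they compare times for one gene, not genes with each other.

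The sensors and transcription factors were the flattest group, with 1 of 3 tested members called and a median fold of 1.14. Atf6 gave 41.7, 56.4, 62.7 and 49.5 at CT0 and 103, 95.4, 95.6 and 116 at CT16. All 4 libraries at CT16 were above all 4 at CT0. A day later the libraries at CT40 (116, 83.5, 104 and 78.0) overlapped those at CT24 (65.1, 89.2, 80.1 and 71.0). The fitted wave peaked at 12.5 hours, earlier than that of most chaperones, with a 1.26-fold range (exact JTK_CYCLE adjusted p = 0.140), and the call was lost without the libraries of letter A, of B or of D. Xbp1 ran from 585 to 1300 (median 871) over the 48 libraries and was not called (fold 1.14, exact adjusted p = 1.00). Its libraries at CT0 (1057, 764, 600 and 808) overlapped those at CT12 (1007, 974, 1089 and 901). Counts per gene do not separate spliced from unspliced Xbp1, so they carry no measure of IRE1 activity. Mbtps1 was not called (exact adjusted p = 0.259).

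BiP, GRP94 and their cochaperones cycled in 9 of 9 tested cases, with a median fold of 1.69. Hspa5 gave 1602, 1458, 1515 and 1567 at CT20 and 583, 590, 569 and 539 at CT36. The 4 libraries of each time point lay close together and far from the other group. At CT44 they were scattered over 821, 1015, 1771 and 2716, with library D the highest of the wild-type data. The fitted wave peaked at 20.4 hours with a 2.26-fold range (exact adjusted p = 1.41e-04).

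Creld2, an ER protein known as a stress-induced partner of the folding machinery, gave 319, 214, 229 and 253 at CT20 and 110, 67.6, 79.1 and 107 at CT36. The groups did not overlap, and CT44 was again scattered, over 146, 239, 316 and 535. Its wave peaked at 20.1 hours with a 2.48-fold range (exact adjusted p = 4.73e-04). Sdf2l1, which joins BiP and its J-domain partner in a chaperone complex, gave 156, 141, 206 and 143 at CT0 and 38.7, 30.3, 22.7 and 31.1 at CT36. The lowest library at CT0 was above the highest at CT36, while CT44 spanned 35, 86.8, 150 and 332 and so overlapped both. Its wave peaked at 22.8 hours with a 3.52-fold range (exact adjusted p = 2.03e-06).

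Hyou1, a large relative of HSP70 that exchanges the nucleotide of BiP, gave 38.3, 39.5, 66.0 and 40.5 at CT0 and 18.4, 11.3, 21.8 and 21.9 at CT36. Library C at CT0 stood above its 3 neighbours, and the groups did not overlap. Its wave peaked at 22.2 hours with a 1.98-fold range (exact adjusted p = 5.42e-05). Dnajb9, a J-domain cochaperone that also holds IRE1 in check, ran earlier, with 165, 150, 188 and 140 at CT16 and 77.9, 87.2, 78.9 and 60.6 at CT28. Those groups were fully apart. Its peak was at 15.3 hours with a 1.69-fold range (exact adjusted p = 2.95e-04). The J-domain cochaperones Dnajc3 and Dnajb11 peaked at 21.4 and 21.9 hours (folds 1.59 and 1.45) and GRP94, Hsp90b1, at 22.6 hours (fold 1.36). Sil1, a second nucleotide exchange factor of BiP, peaked at 3.1 hours with a fold of 1.13, and its call was lost without letter A or without C.

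The 5 protein disulfide isomerases, which form and rearrange disulfide bonds, were all called, with a median fold of 1.73. Pdia3, the isomerase that works with calnexin and calreticulin, gave 423, 484, 414 and 616 at CT20 and 235, 296, 300 and 288 at CT36. The groups did not overlap. Its wave peaked at 22.6 hours with a 1.74-fold range (exact adjusted p = 2.03e-06). Pdia4 gave 325, 273, 365 and 230 at CT24 and 157, 152, 131 and 193 at CT36, also without overlap. Its peak was at 23.5 hours and its range 1.73-fold (exact adjusted p = 4.49e-05). Pdia6 gave 1397, 1433, 1498 and 1330 at CT0 and 668, 695, 591 and 505 at CT36, with a wide gap between the groups. Its peak was at 24.0 hours and its range 1.73-fold (exact adjusted p = 6.64e-07). P4hb, the founding member of the family, and Txndc5 were called with smaller folds of 1.18 and 1.34 and peaks at 20.9 and 17.2 hours.

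Among the lectin chaperones and glycoprotein checking factors 3 of 5 were called. Calr, calreticulin, gave 5232, 5696, 4952 and 5380 at CT0 and 2499, 2560, 2945 and 2434 at CT36, with no overlap, and peaked at 0.4 hours with a 1.55-fold range. Edem1, which directs misfolded glycoproteins to degradation, gave 381, 322, 356 and 321 at CT20 and 155, 179, 164 and 127 at CT36, again fully apart, and peaked at 21.5 hours with a 1.69-fold range. Canx, the membrane-bound calnexin, peaked at 21.5 hours with a fold of 1.23 (exact adjusted p = 0.0987), a call lost without letter C or without D. Uggt1, the sensor that puts glucose back on unfolded glycoproteins, and Os9, a lectin of the degradation pathway, were not called (exact adjusted p = 1.00 for each).

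In ER-associated degradation, which returns misfolded proteins to the cytosol for the proteasome, 4 of 6 members were called, among them the member with the largest amplitude. Derl3, a derlin of the retrotranslocation complex, gave 67.6, 102, 47.3 and 41.3 at CT0 and 23.8, 3.08, 5.07 and 9.11 at CT12. The groups did not overlap, but a day later, at CT24, the libraries gave 61.3, 10.9, 19.8 and 21.9 and only library A was as high. Its wave peaked at 23.0 hours with a 4.23-fold range (exact adjusted p = 0.0128), and without letter D the fold was 3.47 and the call was lost (exact adjusted p = 0.309).

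Herpud1, a membrane protein that organizes the HRD1 ligase complex, ran out of step with the chaperones. It gave 824, 864, 771 and 771 at CT4 against 1638, 1699, 1635 and 1666 at CT12 and 1976, 1727, 1479 and 1965 at CT16. A day later it gave 693, 907, 1242 and 724 at CT28 and 1757, 1912, 2584 and 2859 at CT36, the time at which most members were at their lowest. On both days every high library was above every low one. The wave peaked at 13.4 hours with a 2.21-fold range and the smallest p of the members (exact adjusted p = 7.24e-08). Syvn1, the HRD1 ligase itself, gave 889, 675, 667 and 623 at CT20 and 388, 368, 367 and 385 at CT32. The groups did not overlap, and at CT44 library D (1371) was far above the other 3 (563, 539 and 575). Its peak was at 20.3 hours and its range 1.74-fold (exact adjusted p = 5.91e-05). Derl1 peaked at 6.8 hours (fold 1.20), a call lost without letter B, and Sel1l, the ligase's adaptor (exact adjusted p = 0.212), and Derl2 (0.375) were not called.

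**Figure D3:**
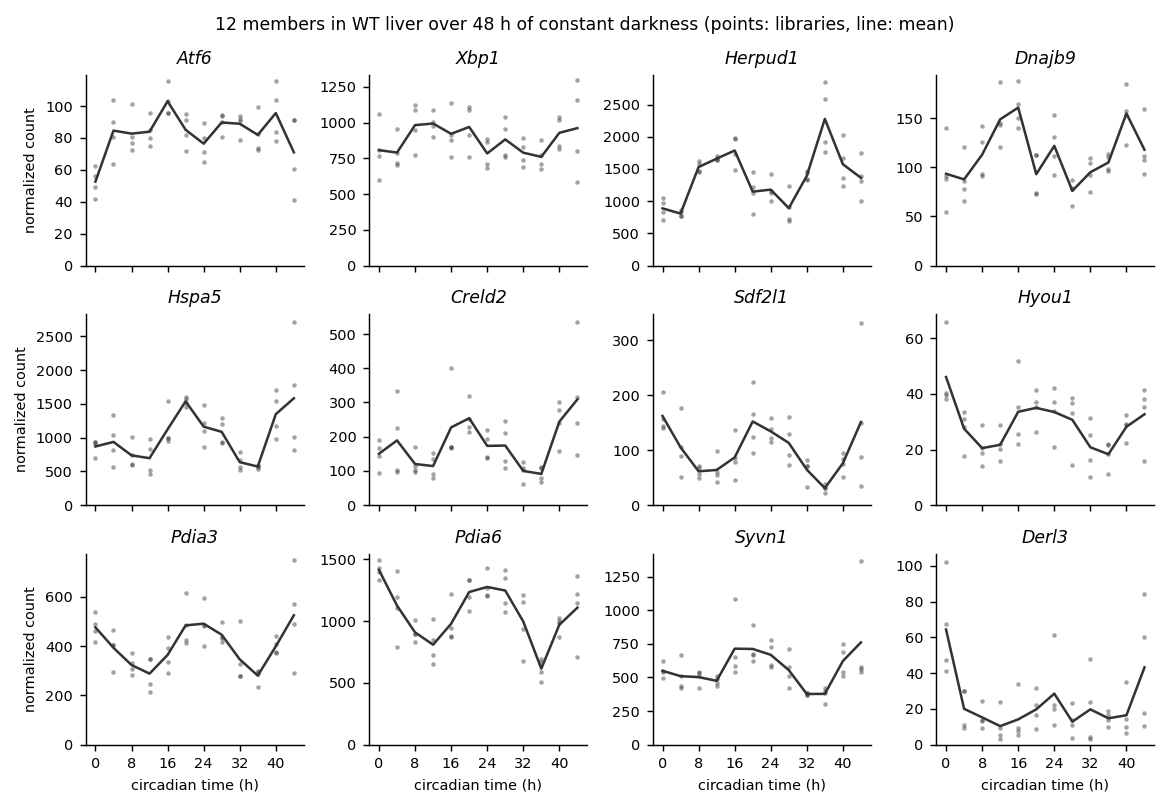
DESeq2-normalized counts (y axis) of 12 members in the 48 wild-type libraries over circadian time in hours (x axis), with points for libraries and a line through the time point means. Hspa5 lies between 1458 and 1602 at CT20 and between 539 and 590 at CT36, where Herpud1 is at its highest (1757 to 2859).

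The 5 translocon members, subunits of the SEC61 channel and of the TRAP complex beside it, were all called with small folds (median 1.21). Ssr1, the TRAP alpha subunit, had the widest range of them, with 16.6, 18.8, 19.6 and 16.4 at CT20 and 4.84, 7.80, 7.91 and 7.31 at CT36. The groups did not overlap. Its wave peaked at 22.6 hours with a 1.67-fold range (exact adjusted p = 0.00421). Sec61a1, Ssr3 and Ssr2 peaked at 21.5, 21.1 and 20.0 hours and Sec61b at 0.2 hours, with folds of 1.16 to 1.21, and the calls of Sec61b, Ssr2 and Ssr3 were each lost without at least one letter.

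All 9 members whose promoter held the ER stress element were called at 24 hours, with peaks from 20.1 to 24.0 hours and, for Calr, at 0.4 hours. For comparison, 27 of the 33 tested members and 48.6% of all genes were called. Whether the element goes with the call was not tested. The ERSE-II promoters printed above belonged to members at different phases, Dnajb11 at 21.9 hours and Herpud1 at 13.4 hours. Some members with neither form of the element, such as Edem1 and Sdf2l1, peaked in the same hours. Others with neither form, such as Txndc5 (17.2 hours) and Dnajb9 (15.3 hours), peaked earlier.

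No member was called at 12 or 16 hours in wild type. The 16-hour test gave 0 of 33 members, against 0.0540% of all genes, with 1 member (Os9) at an unadjusted p under 0.05. The 12-hour test gave 0 members, and 0% of all genes, with 1 member (Atf6, exact p = 4.24e-04, adjusted 0.415) under the unadjusted threshold, and the edgeR harmonic test called none at either period. A 12-hour term fitted beside the 24-hour term was past an edgeR adjusted p of 0.05 in 0 members, against 0.400% of all genes, with 5 members at an unadjusted p under 0.05. The lowest adjusted p-values were those of Creld2 (0.0792), Hspa5 (0.10) and Atf6 (0.141). DESeq2 called Hspa5 (adjusted p = 0.0445) and Creld2 (0.0260) for the same term. An edgeR test of any change over the 12 time points, which assumes no wave, called 23 members (69.7%), against 32.9% of all genes. That count fell to 14 without letter C and was 16 to 19 without one of the others.

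Other genes of the pathway are described by counts on lists that hold no member. Over all genes 48.6% were called at 24 hours in wild type, and 26.8% of those called peaked between 18 and 24 hours, against 70.4% of the called members. Of 11 tested sensors, factors and regulators 8 were called, and 3 of these peaked between 18 and 24 hours. They included the stress factors Ddit3 (fold 1.60, peak 20.0 hours) and Atf4 (1.34, 23.5 hours) and the ATF6 relative Atf6b (1.45, 21.2 hours), but Trib3, a target of Atf4, had an 8.80-fold range with its peak at 7.9 hours, and Creb3l3, a liver ER-bound factor, peaked at 11.6 hours (fold 1.37). Of 17 tested further ER folding factors 5 were called, 3 of them with a peak between 18 and 24 hours, among them Erp29 (1.40, 22.7 hours). Of further degradation genes 8 of 16 were called, 5 of them in that window. Of further translocon, signal peptidase and oligosaccharyl transferase genes 12 of 21 were called, 7 of them in the window (Serp1, 1.68, 19.7 hours). Of ER to Golgi vesicle genes 10 of 18 were called, 2 of them in the window (Mcfd2, 1.59, 21.3 hours). The heat shock chaperones outside the ER, a list of cytosolic proteins with the mitochondrial Hspd1 and Hspe1, were called in 12 of 12 cases, 6 of them with a peak between 18 and 24 hours, and with a median fold of 3.35. Their ranges went up to 64.9-fold for Hspa1b (peak 16.4 hours), with Hspb1 at 9.0-fold (21.4 hours) and Hsph1 at 7.79-fold (17.9 hours).

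In Per1,2-/- liver no about 24-hour rhythm was called among the members. The 24-hour test gave 0 of 33 (0.0864% of all genes), with 1 member at an unadjusted p under 0.05, and the edgeR harmonic test also gave 0. The difference itself was tested in an edgeR fit over both genotypes, and the 24-hour term differed from that of wild type for 21 of 33 members (63.6%), against 27.6% of all genes. In wild type 27 of the 33 members cycled, against 48.6% of all genes, so this excess is not separate from the wild-type result. Members were not compared with only those genes that cycled in wild type. The lowest adjusted p-values were those of Herpud1 (1.49e-07), Pdia6 (3.40e-07), Edem1 (2.05e-06) and Hspa5 (8.89e-06). The 5 disulfide isomerases were all among the 21, as were 7 of 9 BiP and GRP94 members, 4 of 6 degradation members, 2 of 5 lectin members, 2 of 5 translocon members and, of the sensors and factors, Mbtps1. The difference was not past the threshold for Xbp1, Atf6, Sil1, Dnajb9, Canx, Uggt1, Os9, Derl1, Derl2, Ssr1, Ssr2 and Ssr3. The call of Mbtps1 was lost without each letter in turn and with DESeq2. The count of members was 23 without the highest libraries. Without one letter it was 12 (A), 16 (B), 19 (C) and 14 (D), where 1824, 1874, 1751 and 1843 of 9258 genes were called, against 2552 with all letters. All 12 heat shock chaperones outside the ER also differed.

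**Figure D4:**
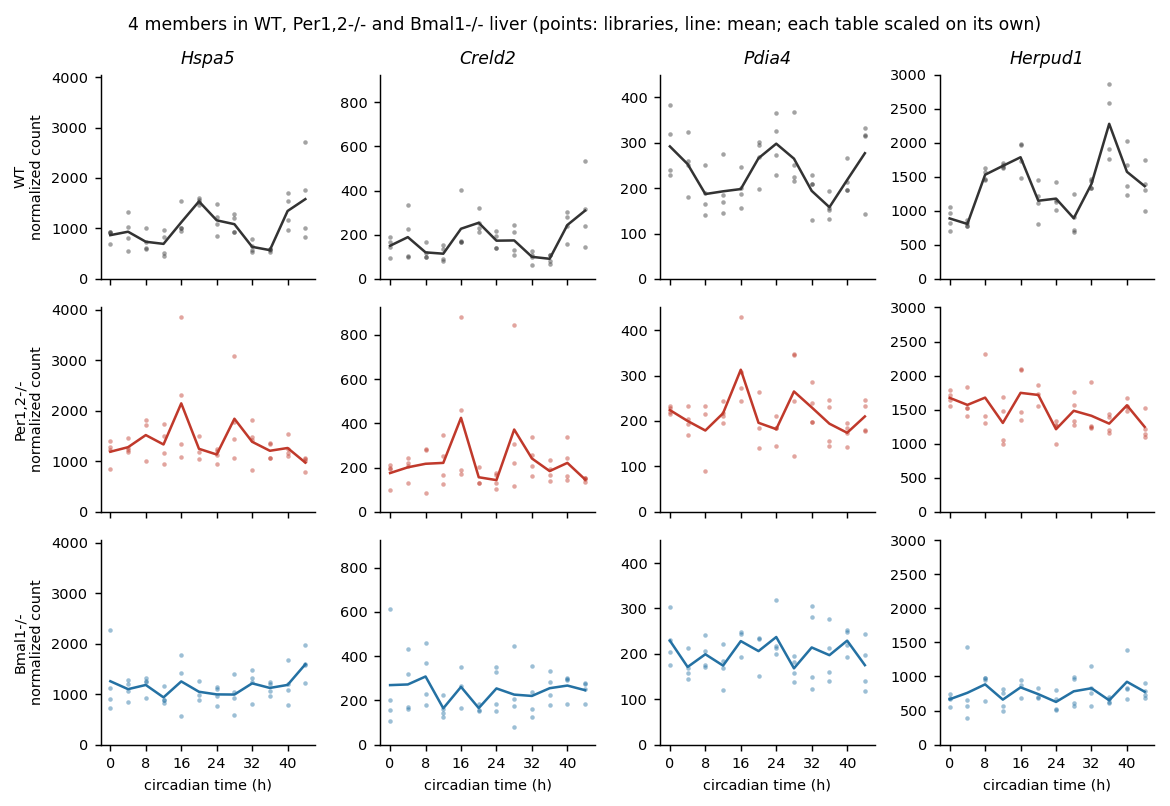
DESeq2-normalized counts (y axis) of Hspa5, Creld2, Pdia4 and Herpud1 over circadian time in hours (x axis) in wild-type, Per1,2-/- and Bmal1-/- livers, with points for libraries and lines through time point means. The wild-type waves of Hspa5 and Herpud1 run in opposite directions at CT36, and single libraries such as Per1,2-/- D at CT16 (3858 for Hspa5) stand high in the knockouts.

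At 16 hours 2 members were called in Per1,2-/- liver (6.06%), against 4.73% of all genes, a share near the background. Pdia4 gave 308, 244, 273 and 429 at CT16 and 185, 212, 185 and 145 at CT24. Every library at CT16 was above every one at CT24, but at CT28 the libraries were spread over 346, 347, 122 and 245. The 16-hour wave peaked at 15.0 hours with a 1.49-fold range (exact p = 0.00506, adjusted 0.156). Without the highest libraries the fold was 1.40 and the adjusted p 0.224, and the call was also lost without each letter in turn (adjusted p 0.270 to 0.593).

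Atf6 gave 132, 139, 138 and 114 at CT4 and 76.8, 97.2, 78.0 and 96.5 at CT44. The groups did not overlap. Its 16-hour wave peaked at 2.8 hours with a 1.21-fold range (exact p = 0.00876, adjusted 0.193), close to the threshold, and the call was lost without each letter in turn (adjusted p 0.377 to 0.554) and without the highest libraries (0.211). The edgeR harmonic test called Pdia4, Calr and Sdf2l1 at 16 hours and not Atf6. Neither the 16-hour term (0 members against 0.0432% of all genes, 5 members at an unadjusted p under 0.05) nor the 12-hour term (0 members against 0.162%, 3 at an unadjusted p under 0.05) was called as different from wild type for any member by edgeR. The 12-hour test within Per1,2-/- called 0 members (0% of all genes), with Dnajc3 and Ssr3 at an unadjusted p under 0.05.

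Change over time without a fixed wave was called by edgeR for 4 members in Per1,2-/- (12.1%, against 14.8% of all genes), namely Atf6 (adjusted p = 0.0219), Sdf2l1 (0.0222), Derl3 (0.0368) and Edem1 (0.0444). The count moved between 0 and 11 when one letter was left out (11 with C left out, 1 with A left out and 0 with either B or D left out) and was 2 without the highest libraries and 8 by DESeq2. CT16 carried the highest mean of the first day for 21 members, and CT28 that of the second for 16. At CT16 the libraries disagreed. Hspa5 gave 2318, 1338, 1078 and 3858 and Creld2 459, 188, 172 and 881. Sdf2l1 gave 86.6, 48.5, 64.2 and 246, and Syvn1 551, 442, 456 and 1708. Library D was the highest for each of these genes. At CT28 it was library B, with Hspa5 at 1773, 3093, 1072 and 1436 and Creld2 at 308, 843, 116 and 220.

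In Bmal1-/- liver no member was called at any period or as changing over time. The 24-hour test called 0 of 33 (0.0116% of all genes), with none at an unadjusted p under 0.05. The 16-hour test called 0 (0.0116% of all genes), with Xbp1, Sil1 and Edem1 under the unadjusted threshold. The 12-hour test called 0 members (0.140% of all genes), with Ssr3 (exact p = 0.00751, adjusted 0.239), Herpud1 (adjusted 0.283) and Pdia3 (adjusted 0.292) the nearest, and the edgeR harmonic tests called 0 at each period. The edgeR test of change over time called 0 members (0.0699% of all genes), none of them at an unadjusted p under 0.05, and DESeq2 also called 0. Ssr3, the nearest at 12 hours, gave 242, 523, 278 and 219 at CT0, 198, 242, 196 and 228 at CT24 and 335, 335, 258 and 415 at CT44. Library B at CT0 was the highest of these, and the other 3 at CT0 overlapped those at CT24.

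The 24-hour term in Bmal1-/- differed from wild type for 16 of 33 members (48.5%), against 22.5% of all genes. They were Hspa5, Hsp90b1, Hyou1, Dnajb11, Dnajc3, Sdf2l1, Creld2, Pdia3, Pdia4, Pdia6, Calr, Edem1, Herpud1, Sel1l, Syvn1 and Ssr1, with the lowest edgeR adjusted p for Herpud1 (1.19e-04), then Pdia6 (5.00e-04). The count was 17 without the highest libraries, but 4 with letter D left out, 6 with C, 11 with A and 15 with B. Over all 8586 genes the count was 1930, and 1259 with D left out, 1250 with C, 1440 with A and 1410 with B. Without letter D the members' share was under that of all genes, and without C it was little above it. The excess over all genes was thus not stable when a letter was left out. Whether particular libraries or the smaller number of libraries account for this was not tested. The 16-hour term differed for 0 members (0% of all genes, 2 members at an unadjusted p under 0.05) and the 12-hour term for 0 (0.221% of all genes, 2 members at an unadjusted p under 0.05) by edgeR. Both knockouts were compared with the same wild-type libraries, so the 2 counts are not independent. Neither count is separate from the share of members that cycled in wild type, which was above that of all genes.

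Single libraries set the extremes of several members in Bmal1-/-. Atf6 gave 95.4, 87.2, 107 and 25 at CT40 and 104, 106, 87.4 and 29.9 at CT44, where library D was far under the other 3 at both times. Hspa5 at CT0 gave 898, 2275, 730 and 1116 and Creld2 156, 613, 105 and 203, with library B the high one. Over all libraries Hspa5 ran from 453 to 2716 (median 944) in wild type, 788 to 3858 (median 1235) in Per1,2-/- and 563 to 2275 (median 1130) in Bmal1-/-, on normalizations made within each table.

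Mean levels over the 12 time points were compared by edgeR on raw counts of both tables scaled together. The CPM values of members given here use library totals scaled by TMM, an edgeR normalization, over all genotypes together. The CPM values of markers and deleted genes above use plain library totals. In bulk liver, fewer cells of a type and less RNA per cell cannot be told apart, and genotype and sequencing table cannot be told apart either. In Per1,2-/- 24 of 33 members differed (72.7%, against 70.0% of all genes), 13 of them higher (39.4%, against 35.7%) and 11 lower (33.3%, against 34.2%), and without the highest libraries 25 differed, 13 of them higher. The share was near that of all genes, and the median difference was 0.06 on the log2 scale over the members and 0.011 over all genes. All 3 tested sensors and factors were higher (Xbp1 by 0.27 ± 0.05, SE, on the log2 scale), as were 4 of 9 BiP and GRP94 members with 1 lower, 2 of 5 disulfide isomerases with 2 lower, 1 of 5 lectin members with 3 lower, 2 of 6 degradation members with 2 lower and 1 of 5 translocon members with 3 lower.

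Sdf2l1 had the largest difference in Per1,2-/-. It ran from 7.58 to 109 CPM (median 28.5) in wild type and from 2.38 to 67.7 CPM (median 12.7) in Per1,2-/-, so the ranges overlapped while the median was lower, and the log2 difference was -1.23 ± 0.13 (SE, edgeR adjusted p = 9.63e-14). Derl3 ran from 0.989 to 33.7 CPM (median 5.09) in wild type and from 0.371 to 20.6 CPM (median 2.73) in Per1,2-/- (-1.04 ± 0.21, adjusted p = 1.42e-05). These were the 2 members with the largest 24-hour amplitude in wild type. Sec61b was the member with the largest rise, from 114 to 279 CPM (median 225) in wild type to 243 to 410 CPM (median 311) in Per1,2-/- (0.49 ± 0.04, adjusted p = 2.16e-21), with a narrow overlap of the ranges.

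Syvn1 ran from 101 to 450 CPM (median 179) in wild type and from 76.2 to 470 CPM (median 122) in Per1,2-/- (-0.47 ± 0.08, edgeR adjusted p = 3.76e-07). Its highest value, like that of Hspa5, came from library D at CT16. Pdia3 ran from 70.8 to 246 CPM (median 134) and from 46.3 to 163 CPM (median 93.9; -0.45 ± 0.06, adjusted p = 5.65e-10). Ssr2 ran from 149 to 249 CPM (median 194) and from 123 to 217 CPM (median 144; -0.40 ± 0.03, adjusted p = 1.97e-18). For each of these genes the median fell while the ranges overlapped, and 0 of the 33 members had ranges that did not overlap. How many of all genes had such ranges is not given here, so the count is a description only. Hspa5 was slightly higher (0.22 ± 0.08, adjusted p = 0.0136), and Creld2 was at 0.09 ± 0.12 (adjusted p = 0.514).

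In Bmal1-/- 26 of 33 members differed from wild type (78.8%, against 77.1% of all genes), 16 higher (48.5%, against 40.3%) and 10 lower (30.3%, against 36.8%), with a median of 0.08 on the log2 scale against 0.017 over all genes. Txndc5, an ER thioredoxin, ran from 51.5 to 104 CPM (median 73.6) in wild type and from 14.5 to 44.3 CPM (median 25.8) in Bmal1-/-. The ranges did not overlap, and the log2 difference was -1.45 ± 0.05 (SE, edgeR adjusted p = 2.44e-39). In Per1,2-/- the same gene was at -0.10 ± 0.05 (edgeR adjusted p = 0.0590) and, without the highest libraries, at -0.12, past the threshold (adjusted p = 0.0222). Ssr1 moved the other way, from 1.61 to 7.44 CPM (median 4.11) in wild type to 6.34 to 19.4 CPM (median 11) in Bmal1-/- (1.43 ± 0.07, adjusted p = 7.41e-30), with little overlap.

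Sil1 ran from 85.9 to 152 CPM (median 118) in wild type and from 159 to 238 CPM (median 188) in Bmal1-/-, again with no overlap (0.73 ± 0.03, edgeR adjusted p = 2.10e-36). Txndc5 and Sil1 were the 2 members of 33 without overlap. The share of all genes without overlap is not given here, so this count does not set the members apart from other genes. Herpud1 ran from 225 to 944 CPM (median 451) and from 111 to 409 CPM (median 202; -0.98 ± 0.07, adjusted p = 1.87e-23), with the Bmal1-/- median under the lowest wild-type library. Sdf2l1 was lower here too, at 8.11 to 58.4 CPM (median 14.9; -0.83 ± 0.12, adjusted p = 1.47e-09). Derl3 ran from 0.559 to 21.7 CPM (median 3.01; -0.67 ± 0.23, adjusted p = 0.00723), a call lost without letter A (-0.49, adjusted p = 0.0858).

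By role, in Bmal1-/- 5 of 9 BiP and GRP94 members were higher and 2 lower, 2 of 5 disulfide isomerases higher and 3 lower, 3 of 5 lectin members higher and 1 lower, 2 of 6 degradation members higher and 3 lower, 3 of 5 translocon members higher and 1 lower, and Xbp1 higher (0.26 ± 0.05). Hspa5 was at 0.06 ± 0.08 (edgeR adjusted p = 0.525) and Creld2 higher at 0.33 ± 0.12 (adjusted p = 0.00767). The same wild-type libraries served both level comparisons, and the values of each are given side by side in the plot of level differences.

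**Figure D5:**
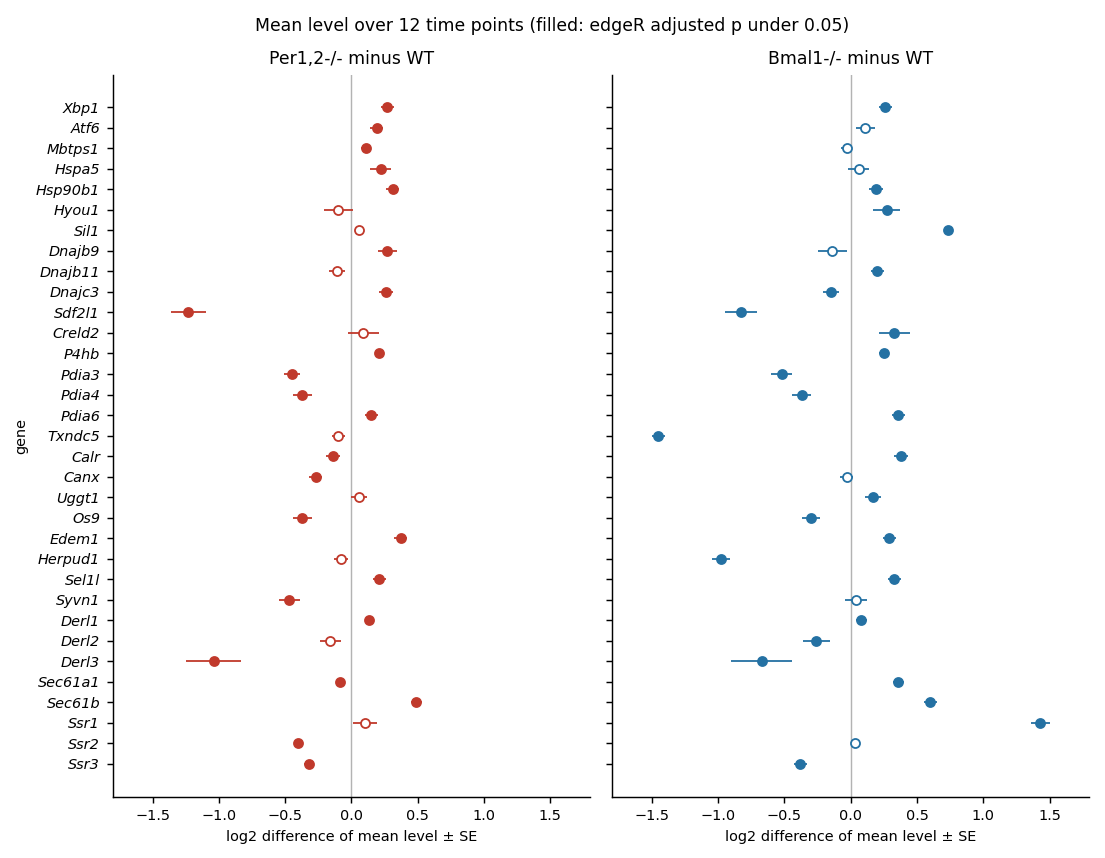
Log2 difference in mean level, knockout minus wild type (x axis), of the 33 tested members (rows) in Per1,2-/- and Bmal1-/- liver, with bars for the standard error and filled points where the edgeR adjusted p was under 0.05. Txndc5 (-1.45) and Ssr1 (1.43) lie farthest from 0 in Bmal1-/-, and Sdf2l1 (-1.23) in Per1,2-/-.

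Beyond the daily wave, libraries of the same time point differed in how high the members stood, and the members differed together. Each library's deviation from its time point mean was compared between Hspa5 and every other tested gene, as a description over libraries that share normalization and depth. The highest library of each genotype, in which Hspa5 and Creld2 both had their highest normalized count, was kept in. How far the values of r rest on these libraries was not tested. Creld2 was the gene most like Hspa5 in each genotype, at r = 0.82 over 48 wild-type libraries (rank 1 of 9257 genes), 0.87 over 46 Per1,2-/- libraries (rank 1 of 9257) and 0.81 over 46 Bmal1-/- libraries (rank 1 of 8585). The median r of the other members was 0.39, 0.47 and 0.47, and that of all genes 0.00, -0.00 and -0.02. Among the members, the next highest were Sdf2l1 (0.73) and Edem1 (0.70) in wild type, Syvn1 (0.79) and Sel1l (0.76) in Per1,2-/-, and Dnajc3 (0.75) and Dnajb11 (0.70) in Bmal1-/-. Sil1 was the lowest member in wild type (-0.38) and in Bmal1-/- (-0.24), while in Per1,2-/- Mbtps1 (-0.04) and Os9 (0.01) were lower than Sil1 (0.07). Herpud1, the member out of phase in wild type, was at -0.09 there.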

How the data were processed

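The data are 3′ end (MARS-seq) RNA libraries of mouse liver. The authors trimmed reads with cutadapt, aligned them with STAR to mm10 and counted molecular identifiers per RefSeq gene with HTSeq in union mode, after extending genes by 1000 bases at the 5′ edge and 100 bases at the 3′ edge. Reads that fall on more than one extended gene are ambiguous in that mode, and their share for the members was not tested. Tool versions are not given in the sources used here. The deposited tables hold raw counts for each genotype and, for wild type and Per1,2-/-, the normalized signal that the authors obtained with DESeq2. Bmal1-/- counts were divided by size factors of the same formula here. All columns matched a sample (0 without one).

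The members and lists were chosen with earlier results of these data known. Genes needed at least 1 count in every wild-type library and every library of the knockout, which left 9258 genes for wild type and Per1,2-/- and 8586 for Bmal1-/-. JTK_CYCLE was rebuilt with its exact null distribution, 1 period at a time, with Bonferroni adjustment over phases and Benjamini-Hochberg adjustment over genes (threshold 0.2). Harmonic tests in edgeR used the quasi-likelihood test on the cosine and sine terms of 1 period. They had only the Benjamini-Hochberg adjustment, with the same threshold of 0.2. Peak and fold came from a fitted cosine. All other tests used edgeR's quasi-likelihood test (glmQLFTest) with TMM scaling and a threshold of 0.05, on one mean for each genotype and time point for levels, and on 24-, 16- and 12-hour cosine and sine terms for each genotype for rhythm differences. DESeq2 served as an alternative. Software was Python 3.11.15, NumPy 2.4.6, SciPy 1.17.1, pandas 2.3.3, Matplotlib 3.10.9, R 4.3.3, edgeR 4.0.16 and DESeq2 1.42.0, and the scripts were tested on simulated data.

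Genes described with values were Xbp1, Atf6 and Ern1, the 10 members with the largest 24-hour relative amplitude in wild type among those called, each member called at another period or in a knockout, and the 6 with the largest called level difference in each knockout. Calr, Edem1, Ssr1, Dnajb9, the ERSE-II and E-box searches and single libraries given by letter were added after their values were seen. Alternatives were another gene filter, scaling and tool, a linear trend, a replicate block and each letter left out. Same-lettered libraries of 2 time points had a median r of 0.03 in wild type, -0.00 in Per1,2-/- and 0.01 in Bmal1-/-. The highest r of such a pair was 0.27, 0.59 and 0.61. Letters were not used as pairs in the main tests. The libraries of one time point differed beyond sampling noise (lowest chi-square per degree of freedom 3.08).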

Additional observations from a re-analysis of the deposited data

Results flagged for a closer look

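Single libraries stood far from the other 3 of their time point in 2 of the 55 groups of 4 that were examined. Chance gives about 1 in 20 groups when they are picked without regard to their values. Many of these groups were picked for high or low values, so that rate cannot be applied to them. Hyou1 in wild type at CT0 was 66.0 normalized counts in library C against 38.3, 39.5 and 40.5 in the others. Syvn1 in Per1,2-/- at CT16 was 1708 in library D against 551, 442 and 456, in the library whose members stood highest as a group.

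The about 24-hour term differed from that of wild type by a test of the difference for 21 members in Per1,2-/- and for 16 in Bmal1-/-, against 27.6% and 22.5% of all genes. Neither count is separate from the larger share of members that cycled in wild type.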

How the results depend on the processing

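The number of members cycling at 24 hours in wild type (27) was 22 to 28 with one letter left out and 29 with edgeR, and level counts were 22 to 24 (Per1,2-/-) and 23 to 26 (Bmal1-/-) with one letter left out. The 16-hour count in Per1,2-/- (2) was 1 with a gene filter of 2 counts, 1 with TMM-scaled CPM, 0 with a linear trend, 0 to 0 with one letter left out and, by alternatives chosen after seeing the data, 1 with a tied reference and 0 without the highest libraries. Change over time in wild type (23) was 14 to 19 with one letter left out. In Per1,2-/- (4) it was 0 to 11 with one letter left out, 8 with DESeq2 and 2 without the highest libraries. The 12-hour term in wild type (0) was 2 with DESeq2. Members with a different 24-hour term were 12 to 19 in Per1,2-/- (21) and 4 to 15 in Bmal1-/- (16) with one letter left out.

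With the replicate letter as a block, change over time in Per1,2-/- fell to 1 member, and the counts were 29 for 24 hours in wild type and 2 for 16 hours in Per1,2-/- (both edgeR), 23 for change over time in wild type, 21 and 16 for the 24-hour term and 24 and 26 for levels. Same-lettered libraries of wild type and Per1,2-/- correlated at a median of 0.02, over 0.1 in 5 of 46 pairs. Within wild type, Per1,2-/- and Bmal1-/-, 53 of 264, 36 of 243 and 35 of 243 same-lettered pairs were over 0.1. Whether the letter marks a shared batch was not tested. Over all genes, leaving out one letter moved the 16-hour calls in Per1,2-/- from 438 to 29 to 174, and change over time from 3045 to 1797 to 2365 in wild type and from 1366 to 361 to 959 in Per1,2-/-. Of named members, Atf6 at 16 hours lost its call under 11 alternatives (adjusted p 0.201 to 0.554) and no value changed sign. The effect of depth on low members was not tested.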
